A study of Mus musculus with 6 samples.

Results

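The immune genes Gsdmd, H2-Q7 and Il2 were measured beside circular RNAs on arrays of mouse cortex after stroke. Each has 1 mRNA probe on a mouse circRNA array with 50 mRNA probes and 1797 circRNA probes, and the 3 genes were taken by name, with earlier results of these data known. The arrays compared cortex of the operated side in C57BL/6J mice, all of them adult males of 21.4 to 22.1 g. In the stroke group (tMCAO, transient middle cerebral artery occlusion) a filament closed the artery for 1 h and was then withdrawn, and tissue was collected at 12 h of reperfusion. The sham group had the operation but not the filament and is labelled 12 h as well. There were 3 mice in each group and 1 array per mouse. All RNA, sham included, was treated with RNase R, which digests linear RNA and spares circles, before random-primed Cy3 labelling. A signal at an mRNA probe therefore comes from RNA that survived the digestion, and its relation to the amount of the transcript in the tissue was not tested. In whole cortex, fewer cells of a type and less RNA per cell cannot be told apart either.

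Gsdmd encodes gasdermin D, a cytosolic protein that inflammatory caspases cut downstream of the inflammasome. Its freed N-terminal part forms pores in the plasma membrane, through which interleukin 1 family cytokines leave the cell and by which the cell can die (pyroptosis). H2-Q7 encodes a nonclassical MHC class I heavy chain of the Qa-2 family, which pairs with beta-2 microglobulin, is held to the membrane by a lipid anchor and shows peptides to lymphocytes. Il2 encodes interleukin 2, the growth factor that activated T cells secrete for themselves and other lymphocytes. In the brain, gasdermin D is known mainly from microglia and infiltrating myeloid cells, class I genes are low in neurons at rest and inducible by interferons, and interleukin 2 is a product of T cells, which are few in healthy cortex.

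The probes are A_51_P172231 for Gsdmd, A_51_P262079 for H2-Q7 and A_51_P114222 for Il2, named through the RefSeq transcripts the array lists for them (NM_026960, NM_010394 and NM_008366). H2-Q7 lies beside H2-Q6 in a cluster of near-identical genes, and RefSeq also lists Q9, the name of another gene of that cluster, among its synonyms. The signal at that probe can come from more than 1 gene. The 3 genes have no other probe here, so no second probe checks them.

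Each probe was printed as 10 spots per array, which gives the spread between spots within an array. The error from digestion, labelling and scaling was not measured. Values below are log2 signals averaged over spots, minus the array's 75th percentile of circRNA probes, unless called unscaled. A probe was counted as detected on an array when more than 0.5 of its spots were well above background. The 75th percentile subtracted from each array was 7.37, 6.43 and 6.17 on tMCAO arrays 1 to 3 and 7.09, 7.01 and 6.67 on sham arrays 1 to 3. Across 1334 tested probes, sham 3 correlated at 0.971, 0.957 and 0.987 with tMCAO 1 to 3 and at 0.925 and 0.939 with sham 1 and sham 2. These are correlations across probes, which are not independent. Sham 3 stands nearer to every array of the other group than to those of its own, so results are given with it and without it. It shared row 2 of the slide with tMCAO 3, and the other 4 arrays lay in row 1.

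The H2-Q7 probe averaged higher after tMCAO, by 0.75 ± 0.26 on the log2 scale (SE), or 1.68-fold. On tMCAO arrays 1 to 3 its level was -1.05, -1.82 and -1.48, and on sham arrays 1 to 3 -1.93, -2.20 and -2.46. All 3 tMCAO values lay above all 3 sham values, and the gap between the nearest pair, tMCAO 2 and sham 1, was 0.11. The error of the spot means of H2-Q7 on these arrays, from the spots of each array alone, was 0.042 and 0.020 (SE). The group means were -1.45 ± 0.38 (SD, n = 3) in tMCAO and -2.20 ± 0.27 in sham. In limma the difference had a 95% interval of 0.14 to 1.35, an unadjusted p of 0.0224 and an adjusted p of 0.595, so it did not pass. Of the 1334 probes tested, 0% passed an adjusted p of 0.05, 7.12% had an unadjusted p under 0.05, and 6.52% had every tMCAO value above every sham value. Among the 29 mRNA probes tested, 2 (6.9%) had this order. H2-Q7 was therefore 1 of many probes with a separation of this kind. Leaving out sham 3 gave a difference of 0.61 (limma, adjusted p = 0.200), and row 1 alone gave 0.63 (adjusted p = 0.340). Without tMCAO 1, the highest array, the difference was 0.55.

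**Figure D1:**
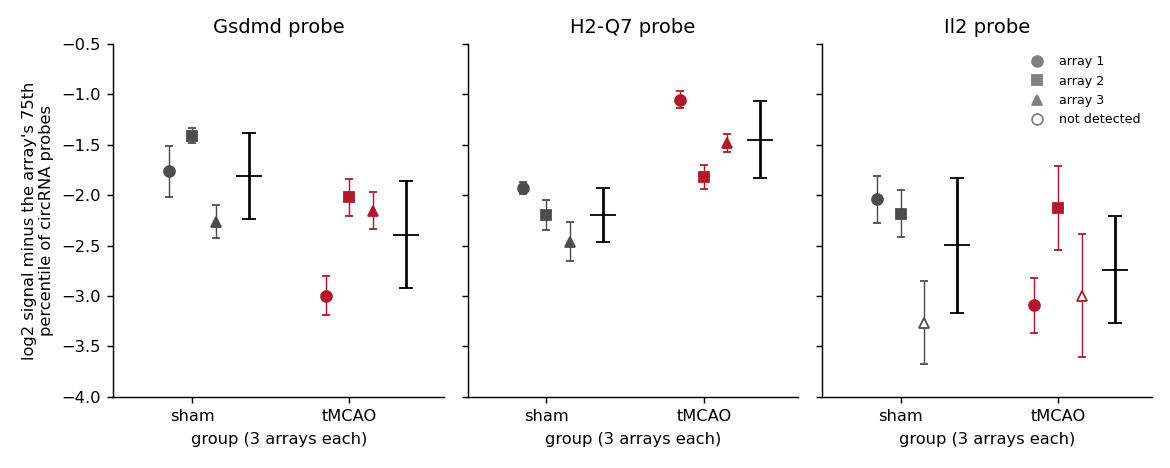
Scaled log2 signal of the Gsdmd, H2-Q7 and Il2 probes on each array (vertical axis, log2 relative to the array's 75th percentile of circRNA probes) for sham (grey) and tMCAO (red). Marker shapes stand for arrays 1 to 3, bars on them for the SD over spots, open markers for arrays on which the probe was not detected, and black bars for the group mean ± SD (n = 3). H2-Q7 is the panel in which the groups do not overlap.

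Before scaling, the H2-Q7 signal was brightest on tMCAO 1. The median over spots was 82.4 scanner units on that array, 24.0 on tMCAO 2 and 25.7 on tMCAO 3. On sham 1, sham 2 and sham 3 it was 35.6, 27.5 and 19.1. The groups overlapped, and the other tMCAO arrays lay within the sham range. Every spot used was well above background, and the medians were 7.37 to 32.5 times the median of the negative controls on the same array. The unscaled difference was 0.48 (log2, exact permutation test over arrays, two-sided, p = 0.7). The separation of the groups appeared with scaling, and tMCAO 2 and tMCAO 3 were the arrays with the lowest 75th percentile.

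The Gsdmd probe averaged lower after tMCAO, by 0.58 ± 0.33 (SE, log2), but the groups overlapped. Its level was -2.998, -2.02 and -2.15 in tMCAO mice 1 to 3, against -1.76, -1.41 and -2.26 in sham mice 1 to 3. Sham 1 and sham 2 were the highest arrays, and sham 3 lay among the tMCAO values. The means were -2.39 ± 0.53 (SD, n = 3) in tMCAO and -1.81 ± 0.43 in sham, and the 95% interval of the difference ran from -1.36 to 0.20. The unadjusted p was 0.124 and the adjusted p 0.595 (limma). Before scaling, the median spot signal was 21.4, 21.1 and 16.3 in tMCAO, against 43.1, 49.1 and 20.4 in sham. Sham 1 and sham 2 were again the highest, but tMCAO 1, the lowest array after scaling, was close to tMCAO 2 and sham 3 before it. Unscaled, tMCAO averaged 4.27 ± 0.22 and sham 5.11 ± 0.62 on the log2 scale (SD, n = 3). The exact permutation test gave p = 0.2 (two-sided). Gsdmd was detected on all 6 arrays, at 5.41 to 17.5 times the negative-control median. Without sham 3 the Gsdmd difference was -0.80 (limma, adjusted p = 0.173), and within row 1 it was -0.92 (adjusted p = 0.240, limma). Without tMCAO 1 it was -0.28, and without sham 2 -0.38.

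The Il2 probe showed no separation between the groups. Levels of -3.09, -2.13 and -2.996 in tMCAO stood against -2.04, -2.18 and -3.27 in sham. The means were -2.74 ± 0.53 (SD, n = 3) in tMCAO and -2.50 ± 0.67 in sham. The difference of -0.24 ± 0.40 (SE) had a 95% interval of -1.17 to 0.69 and an adjusted p of 0.808 in limma. Any change inside that interval was not resolved by 3 arrays per group. Il2 was also the 1 probe of the 3 that was not detected on every array. It was detected on the 4 arrays of row 1, and missed on tMCAO 3, with 0 spots well above background, and on sham 3, with 3 of 9. Its median signal was 19.6, 20.6 and 9.74 in tMCAO, against 34.0, 29.3 and 9.71 in sham, or 3.24 to 13.8 times the negative controls. Both low readings came from row 2, and the part of the row in them was not tested. Within row 1, where all arrays detected it, Il2 differed by -0.50 (adjusted p = 0.476, limma). Without sham 3 it differed by -0.63 (adjusted p = 0.246), and without sham 1 by -0.015. T cell genes that could be set beside it have no probe: of 20 genes listed for interleukin 2 and T cell activation, Il2 alone is on the array.

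**Figure D2:**
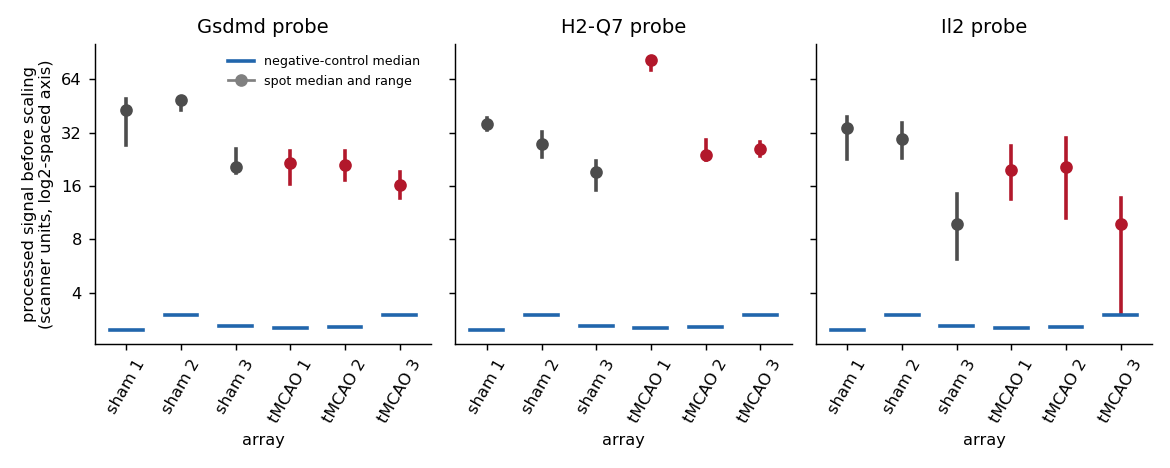
Processed signal of the Gsdmd, H2-Q7 and Il2 probes before scaling on each array (vertical axis, scanner units, log2-spaced). Points are medians over spots, vertical lines run from the lowest to the highest spot, and blue lines mark the median of the negative controls. H2-Q7 stands out on tMCAO 1 at 82.4, Gsdmd is brightest on sham 1 and sham 2, and the lowest Il2 spots on tMCAO 3 reach the level of the negative controls.

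The spread between mice can be set against the spread between spots of 1 array as SDs. For H2-Q7 the SD between mice was 0.38 in tMCAO and 0.27 in sham, and the SD over spots was 0.063 to 0.20. For Gsdmd the SD between mice was 0.53 and 0.43, against 0.074 to 0.25 over spots. For Il2 it was 0.53 and 0.67, against 0.23 to 0.61. The SD over spots is that of single spots, while the value of a mouse is a mean over spots. The SE of that mean for Il2 was 0.073 to 0.19. The largest spot SD of Il2 was on tMCAO 3, where it was not detected.

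A difference between 2 probes on the same array does not depend on how arrays are scaled, so the members were also compared with each other in this way. The level of 1 probe against another has no meaning of its own, because probes differ in brightness, but its change between groups does. This comparison was chosen after the values were seen. H2-Q7 minus Gsdmd was 1.95, 0.21 and 0.67 in tMCAO, against -0.17, -0.79 and -0.20 in sham. Every tMCAO value was above every sham value, sham 3 included. This pair joins the member with the highest difference between groups and the one with the lowest. How many other pairs of probes had this order was not counted. The means were 0.94 ± 0.90 (SD, n = 3) and -0.38 ± 0.35, a difference of 1.32 (exact permutation test, two-sided, p = 0.1, the smallest that 3 arrays against 3 allow; Benjamini-Hochberg p = 0.3 over the 3 pairs). It was 0.82 without tMCAO 1 and 1.42 without sham 3. Over 14 alternatives it stayed above 0 but ranged from 0.47 to 1.69, with the lowest values, 0.47 and 0.48, under normexp correction with an offset of 50, with all spots and without those of outlying background. A difference between probes does not say which of them moved.

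H2-Q7 minus Il2 was 2.04, 0.31 and 1.51 in tMCAO and 0.11, -0.01 and 0.80 in sham. The groups overlapped, with sham 3 above tMCAO 2, and the means differed by 0.99 (exact permutation test, two-sided, p = 0.2, adjusted 0.3). This difference was 1.24 without sham 3 and 0.61 without tMCAO 1. Il2 was not detected on tMCAO 3 and sham 3, so on these arrays both pairs with Il2 rest on a low signal. Within row 1, where all arrays detected Il2, H2-Q7 minus Il2 differed by 1.13. Gsdmd minus Il2 differed by -0.34 (exact permutation p = 0.3, adjusted 0.3), with tMCAO values of 0.09, 0.11 and 0.84 and sham values of 0.28, 0.77 and 1.00. It was -0.18 without sham 3, -0.58 without tMCAO 3, -0.54 without sham 1, -0.21 without tMCAO 1 and -0.22 without tMCAO 2. Within row 1 the Gsdmd minus Il2 difference was -0.42. These arrays did not resolve an unequal change of Gsdmd and Il2.

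**Figure D3:**
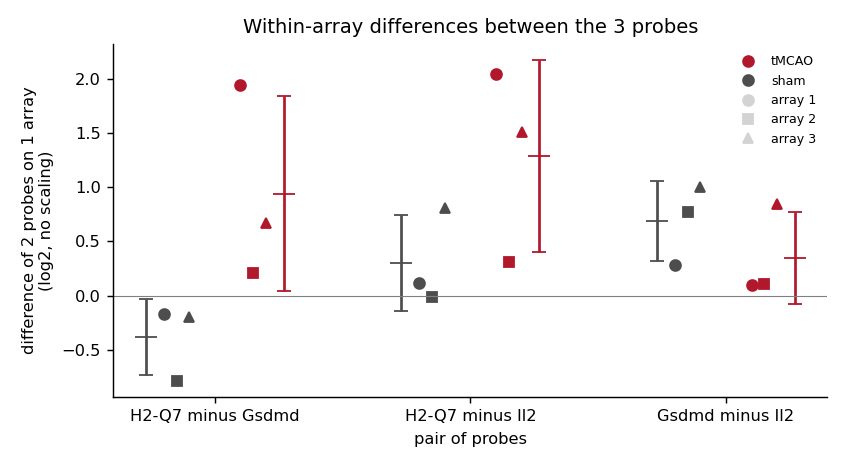
Difference between 2 probes on the same array (vertical axis, log2, no scaling) for the 3 pairs of Gsdmd, H2-Q7 and Il2. Points are arrays, shapes their numbers, and bars the group mean ± SD (n = 3) for sham (grey) and tMCAO (red). H2-Q7 minus Gsdmd is higher on every tMCAO array than on every sham array, and the other pairs overlap. Il2 was not detected on tMCAO 3 and sham 3.

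Set against the other mRNA probes in place of circRNAs, the H2-Q7 difference was higher, by a shift that all probes shared. The reference was the median of 16 mRNA probes detected on all arrays, with the 3 genes left out. Relative to it, H2-Q7 was at 0.07, -1.13 and -0.75 in tMCAO and at -1.53, -1.76 and -1.57 in sham. The tMCAO mean was -0.60 ± 0.61 and the sham mean -1.62 ± 0.12 (SD, n = 3), a difference of 1.02 (adjusted p = 0.561, limma). Sham 3 sat between the other sham arrays on this scale. On the same scale Gsdmd differed by -0.31, Il2 turned to 0.03, and the median over all 1334 tested probes was 0.30. How many probes separated the groups on this scale was not counted. The 29 tested mRNA probes as a whole had a median difference of -0.25 with circRNA scaling, against 0.02 over all 1334 probes, with 9 probes higher and 20 lower in tMCAO. On this background Gsdmd, ranked 19 of 29 from the top, and Il2, ranked 14, lay near the middle of the mRNA probes, while H2-Q7 ranked 3.

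**Figure D4:**
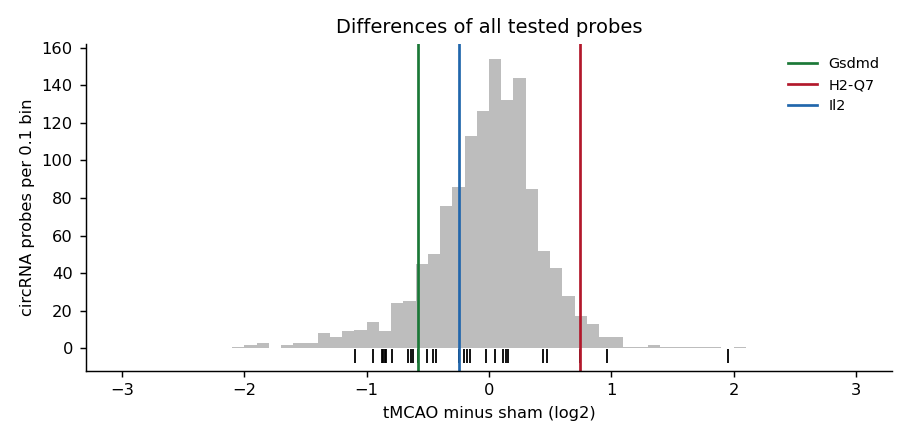
Differences between tMCAO and sham (horizontal axis, log2) of all tested probes. Grey bars count circRNA probes per bin, black ticks below them are the 29 mRNA probes, and coloured lines mark Gsdmd at -0.58, Il2 at -0.24 and H2-Q7 at 0.75. All 3 lie within the spread of the circRNA probes.

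The H2-Q7 difference nearly vanished under normexp background correction, at 0.098, and the fit of 1 array stood apart. That method fits the background of each array from the signals of its spots, each minus the local background around the spot. On sham 3 the spot signal minus its local background was below 0 at 7 spots, down to -5712.5 units, and on the other arrays at 0 spots. The fitted background of sham 3 was -133.8 with an SD of 171.0, where the other arrays gave 7.60 to 13.4 with an SD of 0.92 to 1.25. With this fit the sham 3 values of H2-Q7, Gsdmd and Il2 were -0.27, -0.26 and -0.30, close to the negative controls at -0.34, so that the array no longer told the probes from background. Leaving out the spots whose local background the scanner software marks as an outlier (170 on sham 3, 96 to 154 elsewhere) brought the fitted background of sham 3 to 13.2. H2-Q7 then differed by 0.35 with an offset of 50 and by 0.60 with none, against 0.75 in the main setting. All 3 tMCAO values again lay above all 3 sham values in both forms. With an offset of 50 they were -0.68, -0.80 and -0.62 against -1.05, -1.06 and -1.03. The adjusted p was 0.613 and 0.586 (limma). How many other probes had every tMCAO value above every sham value in these forms was not counted. With an offset of 50 and all spots, H2-Q7 had been at -0.68, -0.79 and -0.61 in tMCAO and at -1.05, -1.05 and -0.27 in sham. How much of the drop from the main setting came from sham 3 was not tested.

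**Figure D5:**
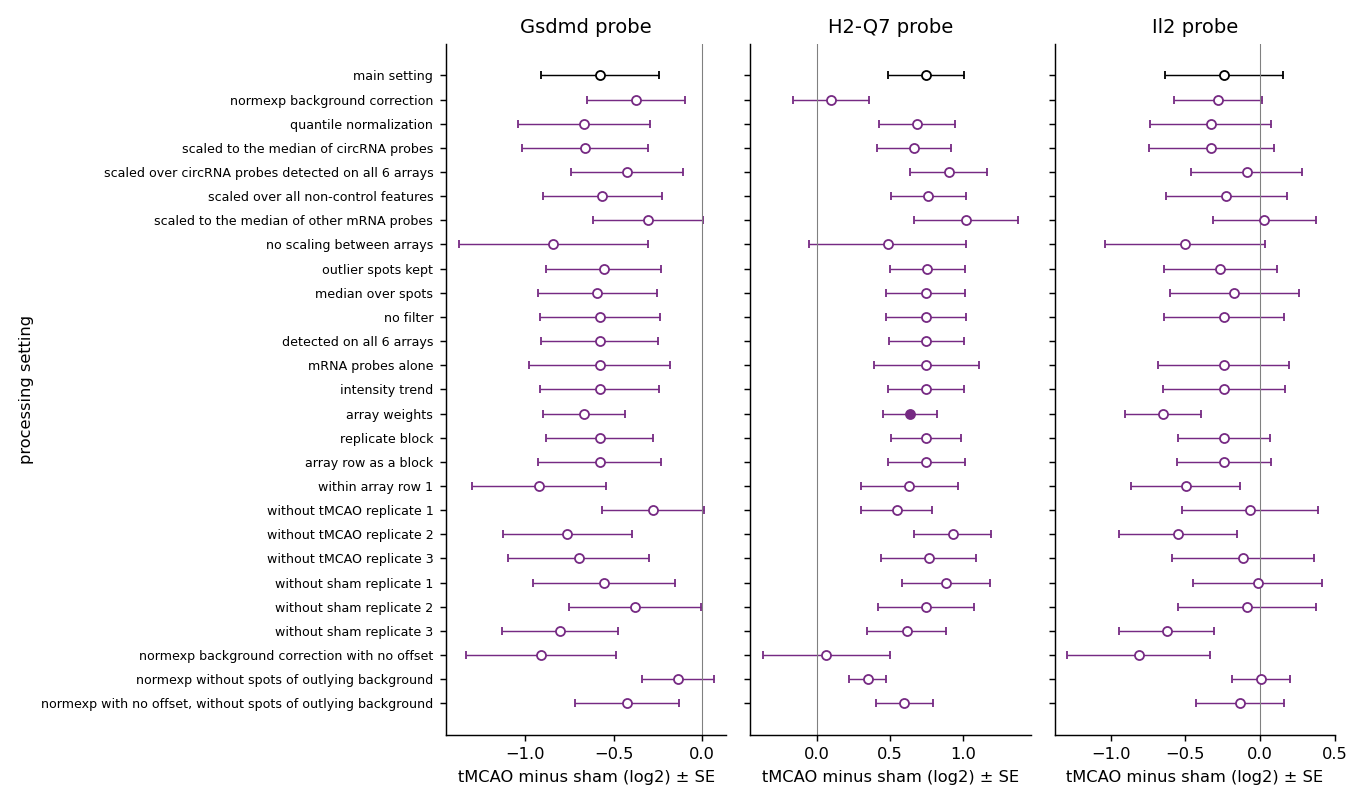
Difference between tMCAO and sham (horizontal axis, log2 ± SE) of the Gsdmd, H2-Q7 and Il2 probes under each processing setting (vertical axis). Open circles did not pass an adjusted p of 0.05 in limma, and the filled circle did. H2-Q7 stays above 0 and Gsdmd below 0 in every setting shown, Il2 crosses 0, and the lowest H2-Q7 values come with normexp correction using all spots.

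Over the 6 arrays, Gsdmd and Il2 had like profiles after scaling and H2-Q7 did not follow them. Pearson r was 0.73 for Gsdmd and Il2, -0.67 for H2-Q7 and Gsdmd and -0.22 for H2-Q7 and Il2, with Spearman rho of 0.77, -0.43 and 0.03. These values describe 6 arrays that share their scaling and are given without a test. The r between the 3 genes before scaling was not calculated, so the negative values are read for scaled signals only. Without the 2 arrays farthest from the median of the first gene they were 0.90, -0.95 and -0.79. The mRNA probes with a gene name most like Gsdmd were Hyal3, a hyaluronidase family member, at r = 0.97, Duox1, a dual oxidase, at 0.95 and Apoe, the astrocyte lipid carrier, at 0.93. Among those most like Il2 were Tm9sf1 at 0.89 and Prdx2, a peroxiredoxin, at 0.89. For H2-Q7 the nearest mRNA probes were Actb at 0.40, Gpi1 at 0.39 and Rps4l at 0.34. Without tMCAO 1 and sham 3, the arrays farthest from the H2-Q7 median, these became 0.016, 0.75 and 0.84, and before scaling they were 0.77, 0.76 and 0.40, so the likeness of these 3 probes to H2-Q7 depended on the arrays and the scaling used. For the mRNA probes named for Gsdmd and Il2, r without the 2 farthest arrays was 0.84 to 0.98. The nearest circRNA probes were ASCRMP001252 and ASCRMP000403 for Gsdmd (0.999 and 0.993), ASCRMP001396 and ASCRMP000242 for Il2 (0.987 and 0.983) and ASCRMP001688 and ASCRMP000740 for H2-Q7 (0.934 and 0.914).

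The Gsdmd profile, in which sham 1 and sham 2 were highest, was common among the mRNA probes. Sham 1 and sham 2 were the highest arrays for 14 of 29 mRNA probes, Gsdmd among them, and for 275 of 1305 circRNA probes (21.1%). An r of at least 0.9 with Gsdmd was reached by 5 other mRNA probes (17.2% of 29) and 62 circRNA probes (4.75% of 1305). For Il2 the counts were 2 mRNA probes (6.90%) and 64 circRNA probes (4.90%). With H2-Q7 an r of at least 0.9 was reached by 0 mRNA probes and 3 circRNA probes (0.23%). H2-Q7 was the 1 mRNA probe of 29 that was highest on tMCAO 1, though 345 circRNA probes (26.4%) were highest there too.

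Other genes of these pathways could not be compared. Of 20 genes listed for pyroptosis and the inflammasome, Gsdmd alone has a probe, and of 23 for MHC class I and antigen presentation, H2-Q7 alone. The lists for the interferon response (11 genes) and for inflammation after stroke (17 genes) have 0 probes, as do those for neurons, microglia, endothelium, neutrophils, T cells and monocytes. Apoe, a marker of astrocytes, and Mbp, a marker of oligodendrocytes, are the markers that could be read. Apoe differed by -0.66 and Mbp by -0.03 (adjusted p = 0.595 and 0.961, limma). Whether the immune cells of the tissue differed between the groups was not tested.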

How the data were processed

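Labelled RNA from 6 mice, 3 tMCAO and 3 sham, was read on 1-colour arrays of 1 slide and 1 scan. The deposited spot intensity is linear and, per the file headers, was background-subtracted and detrended by Agilent Feature Extraction 11.0.1.1 with no scaling across arrays. RNase R digestion, random priming and Cy3 labelling are given per the labels' protocols. Deposited flags, per the file headers, served to drop non-uniform and population-outlier spots.

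From these, log2 intensity was averaged over spots, and the 75th percentile of an array's circRNA probes was taken off all its values. Probes detected on at least 3 arrays entered a limma fit (version 3.58.1, run under R 4.3.3) with moderated variances. P-values were two-sided and adjusted by Benjamini-Hochberg over the 1305 circRNA and 29 mRNA probes together. A further 2 probes had no usable spot on an array and were left out. Array weights were estimated gene by gene, because limma's default (REML) estimate did not converge. The fit was checked on simulated data. The files hold no mean pixel signal, so normexp used the median pixel signal. RefSeq accessions of assembly GRCm38.p6 named 44 of the 50 mRNA probes. Between any pair of arrays 0% of spots were identical. Precision is limited by how few arrays there are.

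The 3 genes, the gene lists and the alternatives were chosen with earlier results of these data known. For each gene, the 3 mRNA probes with a gene name and the 2 circRNA probes of highest Pearson r were named, together with any listed gene that has a probe. For Il2, 1 of these is not reported here. The replicate numbers were not taken as pairs, since deviations of same-numbered arrays did not correlate above 0.1 in every pair.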

Additional observations from a re-analysis of the deposited data

How the results depend on the processing

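Over 26 alternatives the H2-Q7 difference stayed above 0 (0.064 to 1.02) and the Gsdmd difference below 0 (-0.92 to -0.14). The within-array comparisons and the normexp forms without an offset or without spots of outlying background were chosen after the data were seen. Adjusted p-values (limma) ranged from 0.0459 to 0.997 for H2-Q7, from 0.0764 to 0.997 for Gsdmd and from 0.103 to 0.997 for Il2. With array weights H2-Q7 differed by 0.64 and passed at 0.0459, as did 251 of 1334 probes and 15 of 29 mRNA probes; the weights, from a substitute for limma's default estimate, which did not converge, ran from 0.281 for sham 3 to 2.93 for sham 2. Il2 lay below 0 in 23 of 25 alternatives and reversed to 0.029 when scaled to the other mRNA probes and to 0.0098 with normexp without spots of outlying background (cause not tested); Il2 could not be fitted among probes detected on all 6 arrays. With 1 array left out, the differences were 0.55 to 0.93 for H2-Q7, -0.80 to -0.28 for Gsdmd and -0.63 to -0.015 for Il2, and the count of probes with an adjusted p under 0.05, 0 in the main setting, was 0 to 124, the highest without sham 3, where the adjusted p of Gsdmd, H2-Q7 and Il2 was 0.173, 0.200 and 0.246. That count was 6 with no scaling, and apart from the array weights it was 0 in the other settings with all arrays or row 1 alone. With the replicate block it was 0, and the adjusted p (limma) was 0.488 for H2-Q7, 0.531 for Gsdmd and 0.768 for Il2. Same-numbered arrays deviated together at r = -0.15, 0.47 and 0.18. By these deviations, and not by the values themselves, the array of the other group with the highest r was tMCAO 2 for sham 1 and tMCAO 1 for sham 3. The median difference over all probes, 0.02, moved by over 0.1 in 4 settings: to 0.18 when scaled over circRNA probes detected on all 6 arrays, to 0.30 when scaled to the other mRNA probes, to -0.24 with no scaling and to -0.17 with normexp with no offset. Signal over background limits Il2 on tMCAO 3 and sham 3, at 3.24 and 3.75 times the negative controls.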
